A study of Mus musculus with 6 samples.

Results

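The genes described here make, carry, take up and break down retinoids in the mouse forelimb bud. The set has 9 genes, taken by name: Cyp26a1, Cyp26b1, Dhrs3, Stra6, Rbp4, Crabp1, Crabp2, Aldh1a2 and Rdh10. They are read through every probe set that the array annotation assigns to them alone. That gave 10 probe sets for 9 of the 18193 genes on the array, with 2 probe sets for Rdh10 and 1 for each other gene.

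RNA came from forelimb buds of CD1 mouse embryos at E10.5, cut into a proximal and a distal part. Each part was hybridised to 1 Affymetrix array in each of 3 conditions, so the 6 groups hold 1 array each. The control carries the genotype label Ring1A-/- and is named a Ring1A knockout in the series design, although its free-text description calls it wild type. The double knockout (dKO) is labelled Prx1-Cre; Ring1A-/-; Ring1Bfl/fl. It shares the Ring1A genotype label with the control and adds loss of Ring1B in cells that express Prx1-Cre, a driver of limb mesenchyme, so other cell types of the bud keep Ring1B. The RA buds are wild type and came from mothers given all-trans retinoic acid (RA) by gavage at E10.25, at 100 mg/kg, and the other buds received none. The labels do not give the number of embryos in an RNA pool. The study asks how RING1 proteins, which are catalytic subunits of Polycomb repressive complex 1, and RA bear on proximal and distal identity in the bud.

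RA is made from retinol in a pair of oxidation steps. Retinol travels in blood bound to the carrier RBP4 and enters cells through the receptor STRA6. RDH10 oxidises retinol to retinal, and ALDH1A2 oxidises retinal to RA. DHRS3 runs the first step backwards, reducing retinal to retinol. CRABP1 and CRABP2 bind RA inside the cell, and CRABP2 passes it to nuclear receptors. CYP26A1 and CYP26B1 hydroxylate RA and so clear it. In the embryo RA is made in the trunk mesoderm next to the limb, and Cyp26b1 is known as a gene of the distal limb bud. Cyp26a1, Dhrs3 and Stra6 are known to respond to RA.

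The RefSeq promoter windows of the RA-degrading enzymes are shown because both genes had higher signals on the RA arrays than on the control arrays. Each window is the 250 bases before an annotated start on GRCm38.p6, written in the direction of the gene. The Cyp26a1 window is chr19:37697558-37697807 on the plus strand and the Cyp26b1 window is chr6:84593811-84594060 on the minus strand. Capitals mark the pair of 6-letter cores of a direct repeat.
Cyp26a1: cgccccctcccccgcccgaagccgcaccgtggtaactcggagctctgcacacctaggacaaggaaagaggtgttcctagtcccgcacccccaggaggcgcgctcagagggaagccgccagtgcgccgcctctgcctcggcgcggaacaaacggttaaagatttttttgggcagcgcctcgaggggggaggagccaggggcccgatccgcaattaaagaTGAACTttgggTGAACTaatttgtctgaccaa
Cyp26b1: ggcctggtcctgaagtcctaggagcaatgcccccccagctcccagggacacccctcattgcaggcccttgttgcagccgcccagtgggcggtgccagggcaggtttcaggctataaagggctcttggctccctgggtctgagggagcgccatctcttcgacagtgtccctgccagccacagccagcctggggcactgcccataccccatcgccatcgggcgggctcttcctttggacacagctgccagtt

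The core searched, on both strands, was AGGTCA or a variant with the same last letters, which here means AGTTCA, the related form GGTTCA, or the form GGGTCA. Retinoid receptors are known to bind such cores as direct repeats. The searched repeats had spacers of 1, 2 or 5 bases (DR1, DR2 and DR5). The Cyp26a1 window holds 1 DR5, TGAACTTTGGGTGAACT as read on the gene's strand, which runs from base 32 to base 16 before the start. The Cyp26b1 window holds no searched core. RefSeq gave 13 windows for 7 of the 9 genes, and 1 of the 13 holds a DR5 and 0 hold a DR1 or DR2. A single core is in 2 of the 13 windows, those being the Cyp26a1 window and 1 of the Rbp4 windows. Among 32851 mouse promoter windows of this length, 0.0883% hold a DR5, 0.164% a DR1, 0.174% a DR2 and 38.6% a single core. A match in letters is a description of the window, and the arrays did not measure binding. Crabp2 and Rdh10 are named only.

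Values are MAS5 signals on a linear scale. The floor is the median signal of each array, between 59.5 and 76.1, and signals under it were set to it before log2 was taken. Of the 9 genes, 7 were above the floor on all 6 arrays, Cyp26a1 on 4 and Aldh1a2 on 1. A difference between 2 arrays has no replicate check, and none is given a p-value. A gene counts as higher or lower when the arrays differ by at least 2-fold. The comparisons of dKO with control and of RA with control share the control arrays. A limma model that holds condition and part was fitted over 12147 genes, with Benjamini-Hochberg adjustment and an adjusted p threshold of 0.05. It tests an effect averaged over the parts against departures from a like effect in both parts, pooled over all conditions. A large p for 1 condition can therefore come from parts that differ in another. The residual spread is not a replicate spread and rests on 2 residual degrees of freedom. Fits that leave out arrays keep 1 and call far more genes, up to 2429 higher for RA without the distal RA array against 37, so a call gained there is weak support. "Rose" and "fell" refer to genes past the adjusted p threshold. With quantile normalization 80 genes were called higher for dKO, against 269, and 13 for RA, against 37. Alternatives are given for genes of the set only, so calls of other genes close to the threshold carry no such check here.

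Several features separate the arrays apart from the named conditions. Ring1 had signals of 245 to 968 and Rnf2, which encodes RING1B, of 1887 to 2147 over the 6 arrays. No source used here places these probes relative to the deleted exons, and the signals therefore do not check the deletions. All 10 limb mesenchyme markers were above the floor on every array, with a summed signal of 20788 to 29395. The RA arrays had Xist at 12.9 and 29.5 (others 3017 to 3688), Eif2s3y at 2783 and 3064 (others at most 12.3) and the BioB-3 spike-in probe set at 84.4 and 103 (others 1105 to 1223). RA exposure, the Ring1A genotype label and whatever sets these sex-linked and spike-in signals therefore cannot be told apart in any RA value below. The proximal RA array correlated least with the others across genes (r = 0.961 to 0.973, against 0.992 for the control pair), and genes are not independent replicates.

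Cyp26b1, the RA-clearing enzyme of the distal bud, was lower in dKO and higher in RA in both parts. The control arrays gave signals of 302 proximally and 780.3 distally. In dKO it was 79.3 proximally, just above that array's floor of 73.0, and 117 distally. In RA it was 3323 proximally and 2301 distally. Both dKO arrays lay below both control arrays, and both RA arrays above them. Against control, the log2 difference in dKO was -1.93 proximally and -2.74 distally, which is 3.81-fold and 6.69-fold lower. The log2 difference in RA was 3.46 proximally and 1.56 distally, which is 10.99-fold and 2.95-fold higher. Fewer cells of a type and less RNA per cell cannot be told apart in these bulk samples.

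Among all genes, Cyp26b1 had the 8th lowest of 11580 differences in the proximal dKO part and the 4th lowest of 11646 in the distal one. In RA it ranked 5th highest of 11521 proximally and 90th highest of 11389 distally. The opposite differences are the reason for which Cyp26b1 was singled out, so they are a description and no test supports them. For completeness, limma gave -2.34 for dKO (SE 0.43, adjusted p = 0.0483) and 2.51 for RA (SE 0.43, adjusted p = 0.0717). The dKO effect was past the threshold under 3 of 9 alternatives, all of them fits that left out RA arrays. Under the alternatives that kept every array its adjusted p in limma was 0.0615 to 0.125, and none passed. The estimate for RA was 1.76 without the proximal RA array and 3.25 without the distal one. The RA effect was likewise past the threshold only under the 3 of 9 alternatives that left out arrays. With every array kept its adjusted p in limma was 0.0701 to 0.140.

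**Figure D1:**
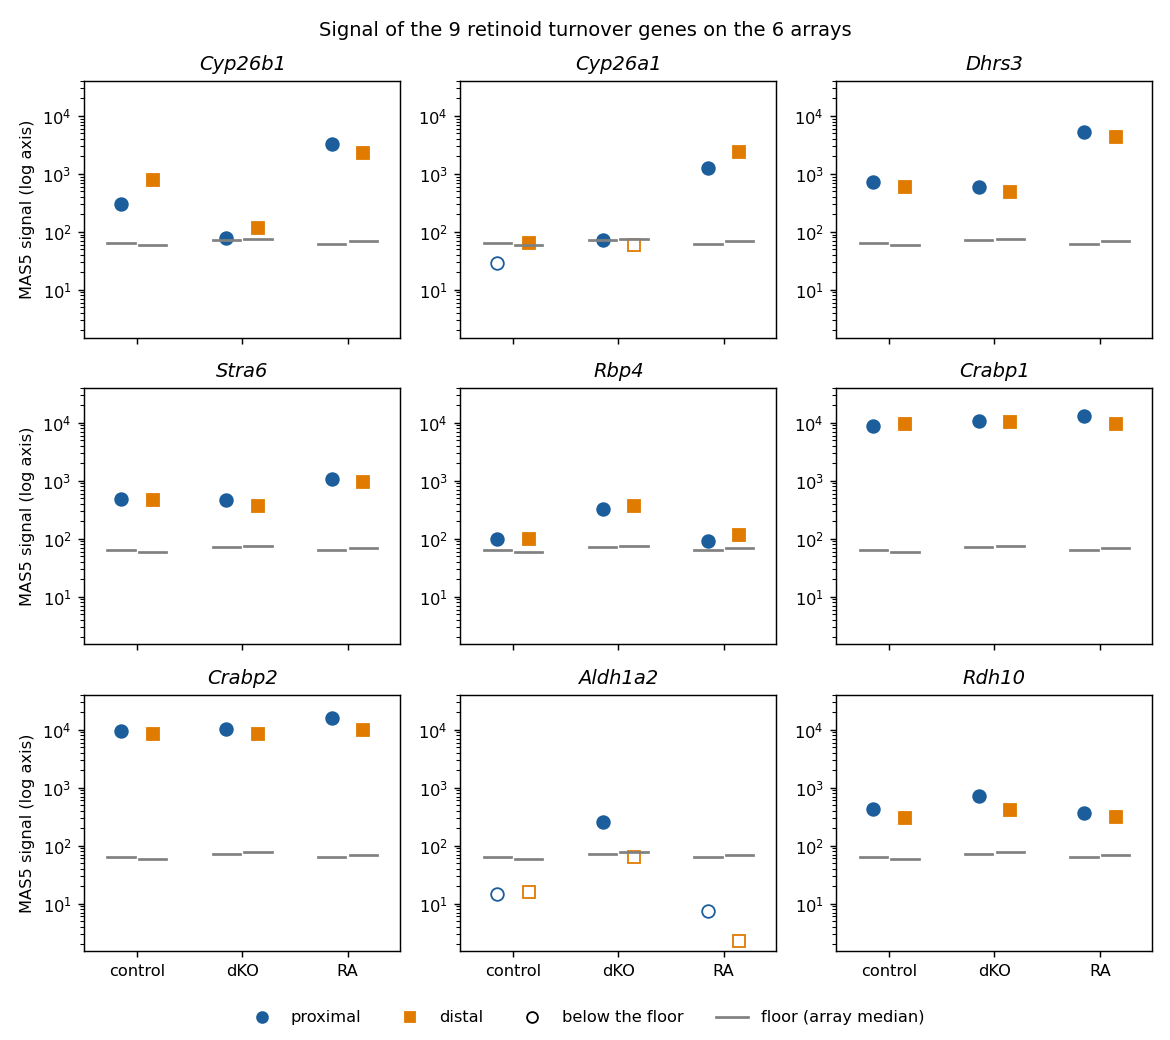
MAS5 signal (log axis) of each gene on the proximal (circles) and distal (squares) array of control, dKO and RA; each point is 1 array, grey bars are the array floors, and open points lie below them. Cyp26b1 is lowest in dKO (79.3 and 117) and highest in RA (3323 and 2301), Rbp4 is highest in dKO (332 and 367), and Aldh1a2 is above the floor only in the proximal dKO part (256).

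Cyp26a1, the other RA hydroxylase, rose in RA. Its signal was 29.3 in the proximal control part, below the floor of 64.0, and 64.8 in the distal one, just above the floor of 59.5. In dKO it was 73.3 proximally and 58.9 distally, and the floors there were 73.0 and 76.1. In RA it was 1256 proximally and 2358 distally. The 4 arrays without RA were thus all near or below their floors, and the RA arrays far above them. Cyp26a1 was at least 19.6-fold higher in the proximal RA part (log2 at least 4.30) and 36.4-fold higher in the distal one (log2 5.19). The distal difference was the 3rd highest among all genes, and the proximal one is a bound and has no rank. The limma estimate was 4.74 (SE 0.30, adjusted p = 0.0030), with estimates of 4.30 to 5.30 and adjusted p of at most 0.0259 over 9 alternatives. Several of its values are floors, which can make that p too small. In dKO the limma estimate was 0.21 (SE 0.30, adjusted p = 0.980), and signals so close to the floor give no fold over control that can be read.

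Dhrs3, which returns retinal to retinol, rose in RA by nearly the same amount in both parts. Its signal was 738 and 586 on the proximal and distal control arrays, 584 and 492 on the dKO arrays and 5251 and 4261 after RA. Both RA arrays were above the other 4. The fold over control was 7.12 proximally and 7.27 distally (log2 2.83 and 2.86). In limma the estimate was 2.85 (SE 0.16, adjusted p = 0.0022), and it was past the threshold under all 9 alternatives (adjusted p at most 0.0145). In dKO the log2 differences were -0.34 and -0.25, with a limma estimate of -0.30 (SE 0.16, adjusted p = 0.648).

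Stra6, the receptor that takes up retinol from RBP4, was about 2-fold higher on the RA arrays. Its signal was 494 and 469.6 on the control arrays, 472 and 365 on the dKO arrays and 1051 and 959 after RA, proximal part first. The RA arrays were again above the other 4. The log2 difference in RA was 1.09 proximally and 1.03 distally, just over the 2-fold line. In limma it was 1.06 (SE 0.21, adjusted p = 0.0933), which is not past the threshold. Leaving out the dKO pair, the proximal RA array or the distal RA array gave adjusted p = 0.0361, 0.0044 and 0.0014, and array median scaling gave 0.164. In dKO the differences were -0.06 and -0.36 (limma -0.21, SE 0.21, adjusted p = 0.921).

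Rbp4, the retinol carrier, rose in dKO and showed no such difference in RA. Its signal was 97.0 and 101 on the control arrays, 332 and 367 on the dKO arrays and 92.8 and 118 after RA. The dKO arrays were above the other 4, and the control and RA values overlapped. The fold over control was 3.42 proximally and 3.64 distally (log2 1.77 and 1.86). The limma estimate for dKO was 1.82 (SE 0.22, adjusted p = 0.0125), past the threshold under 8 of 9 alternatives and at 0.0602 with the floor at the 25th percentile. For RA it was 0.08 (SE 0.22, adjusted p = 0.857). The estimate for dKO minus RA was 1.74 (SE 0.22, adjusted p = 0.0093).

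RBP4 is also a product of liver and visceral endoderm, so the markers of those tissues are given beside it. Of the 12 measured, the control arrays had 2 and 4 above the floor, the dKO arrays 5 and 5, and the RA arrays 3 and 5, proximal part first. Their summed signal was 427 and 517 on the control arrays, 830 and 907 on the dKO arrays and 696 and 995 after RA. Afp was 47.9 and 77.4 on the control arrays, 145 and 231 on the dKO arrays and 48.9 and 265 after RA. Alb, the albumin gene that defines hepatocytes, was below the floor on all 6 arrays. Amn, an endocytic receptor subunit of visceral endoderm, was 24.7 and 22.8 on the control arrays, 83.3 and 124 on the dKO arrays and 33.6 and 14.8 after RA. Amn was above the floor on the dKO arrays only, where Rbp4 was highest. The sum and Afp were also high in the distal RA part. Apoa1 and Apoa2 did not follow Rbp4. Apoa2 exceeded the floor only after RA (proximal 124, distal 169), and its dKO signals of 62.4 and 33.9 lay below it. Apoa1 peaked after RA (proximal 166, distal 134). Its proximal signal was 66.1 without treatment and 129 in dKO, while distally it hardly changed (88.6 against 88.3). The part of liver and visceral endoderm in the Rbp4 result was not tested.

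Crabp1 and Crabp2, the cytosolic RA-binding proteins, had signals close to the top of each array's range. Crabp1 was at 8764 and 9556 on the control arrays, 10918 and 10293 on the dKO arrays and 12923 and 9457 after RA. Crabp2 was at 9340.3 and 8400.1 on the control arrays, 10190.5 and 8528 on the dKO arrays and 15814.5 and 9831 after RA. The highest signal of any probe set was 14768 to 16620 on 5 arrays and 26458 on the proximal RA array. In the proximal RA part Crabp1 was higher than control by log2 0.56 and Crabp2 by 0.76, against -0.02 and 0.23 distally. With quantile normalization the proximal values became -0.02 and 0.10, so that the direction for Crabp1 turned. In limma neither gene passed the threshold for RA (Crabp1 0.27, SE 0.18, adjusted p = 0.455, and Crabp2 0.49, SE 0.18, adjusted p = 0.262). Without the distal RA array, which leaves the proximal one alone, the estimates were 0.51 and 0.73 with adjusted p = 0.0045 and 2.46e-04. In dKO the log2 differences lay between 0.02 and 0.32 for both genes, and with array median scaling the distal ones turned to -0.25 for Crabp1 and -0.33 for Crabp2. The model gave 0.21 for Crabp1 (SE 0.18, adjusted p = 0.865) and 0.07 for Crabp2 (SE 0.18, adjusted p = 0.9996).

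Aldh1a2, the main RA-making enzyme of the embryo, was above the floor only in the proximal dKO part. Its signal there was 256, against 62.8 in the distal dKO part, 14.3 and 15.8 in control, and 7.38 and 2.28 in RA. Every value but the first is below its floor and has no order. The proximal dKO part was at least 3.995-fold above control (log2 at least 1.998) and at least 4.06-fold above RA. Since the gene entered the comparison only through that array, it had to differ there. The limma estimate for dKO was 1.18 (SE 0.43, adjusted p = 0.328). Leaving out the RA pair, the proximal or the distal RA array gave adjusted p of 0.0164, 0.0160 and 0.0135. All its values but 1 are array floors, so these p-values rest on constants and are too small to be read as support.

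Aldh1a2 is also known in mesothelium and somites, and markers of both differed between the arrays. Of 6 measured mesothelium markers, the control arrays had 1 and 2 above the floor, the dKO arrays 3 and 3, and the RA arrays 2 and 3. The summed signal of this list was 1769 and 895 on the control arrays, 1313 and 1361 on the dKO arrays and 761 and 574 after RA, and Tbx18 made up 1678 of the 1769 and 769 of the 1313. Wt1 was 16.4 and 25.1 on the control arrays, 281 and 120 on the dKO arrays and 416 and 154 after RA. Upk3b was 17.8 and 109 on the control arrays, 148 and 156 on the dKO arrays and 19.6 and 74.8 after RA. On the proximal arrays Upk3b was above the floor only in dKO, as Aldh1a2 was, and Wt1 in dKO and in RA. Msln, Upk1b and Lrrn4 were below the floor on all 6 arrays. The 8 somite and body wall markers summed to 4631 and 2627 on the control arrays, 3789 and 2846 on the dKO arrays and 7492 and 2929 after RA. Of the 7 that could be compared in dKO, 2 were 2-fold higher and 3 lower proximally, where 4.07% and 0.363% of all genes were. Distally 2 were higher and 1 lower, where 5.32% and 0.524% were. These counts include Pax9, which entered only through the dKO arrays. Pax9 rose in dKO, from 20.5 and 20.6 to 273 and 280.0 (limma 2.16, SE 0.19, adjusted p = 0.0063). Pax9 was above the floor on the dKO arrays only, so its other values are floors, which can make that p too small. Meox2 fell in dKO, from 1069 and 1271 to 519 and 385 (limma -1.38, SE 0.24, adjusted p = 0.0449). It also fell in RA, to 345 and 330 (limma -1.79, SE 0.24, adjusted p = 0.0448). Foxc2 was at 207 and 93.7 in control and at 621 and 188 in dKO. Pax1 was at 591 and 5.76 on the control arrays, 271 and 113 on the dKO arrays and 1280 and 2.59 after RA. Tbx18 was at 1678 and 660 on the control arrays, 769 and 976 on the dKO arrays and 265 and 283 after RA. The part of these cells in the result was not tested.

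Rdh10, which makes retinal from retinol, was highest in the proximal dKO part. Its brighter probe set had signals of 432 and 304 on the control arrays, 725 and 413 on the dKO arrays and 358 and 315 after RA. The distal dKO value lay inside the control range, so the groups overlap. The log2 difference in dKO was 0.74 proximally and 0.45 distally, below 2-fold. In limma it was 0.60 (SE 0.25, adjusted p = 0.443). Leaving out the RA pair, the proximal or the distal RA array gave adjusted p of 0.0336, 0.0363 and 0.0331. The other probe set was at 217 and 178 on the control arrays, 359 and 217 on the dKO arrays and 114 and 144 after RA. The probe sets differ in RA: the proximal log2 difference from control was -0.27 on the first and -0.92 on the other, and the distal one 0.05 and -0.30.

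Counted over the set, 8 genes could be compared in both parts. In dKO 1 was 2-fold or more higher in both parts (Rbp4), where 2.93% of all genes were, and 1 was lower (Cyp26b1), where 0.185% were. In RA 4 were higher (Cyp26a1, Cyp26b1, Dhrs3 and Stra6), where 0.893% of all genes were, and 0 were lower, where 0.992% were. Taken by itself, each dKO part had 1 of these 8 genes higher and 1 lower, against 4.07% and 0.363% of all genes proximally and 5.32% and 0.524% distally. Aldh1a2 is not counted, since it entered only through the proximal dKO array. Each RA part had 4 of 8 higher and 0 lower, against 3.69% and 6.8% of all genes proximally and 2.16% and 2.13% distally. Cyp26a1 entered the proximal RA comparison only through the RA array, and Cyp26b1 was singled out for its differences, so nothing is read from their place in the counts. By the limma threshold the dKO effect called 1 of 9 genes higher (2.21% of all genes) and 1 lower (0.115%). The lower one was Cyp26b1, from which again nothing is read. The RA effect called 2 higher, Cyp26a1 and Dhrs3 (0.305%), and 0 lower (0.239%); 0 lower is also the count at 2-fold, and no member had a negative RA estimate with an unadjusted p under the threshold. The median log2 difference of the set in RA was 0.93 proximally and 0.63 distally, against 0.01 and -0.04 over all genes. In dKO the set's medians were 0.20 and 0.06, against 0.02 and 0.01. The proximal dKO median is over 9 genes, Aldh1a2 among them, and the distal one over 8. The proximal one falls on Cyp26a1, whose difference there is a bound, so nothing is read from it. The members were picked with results of these data known, so these counts describe the set and do not support a claim about it.

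**Figure D2:**
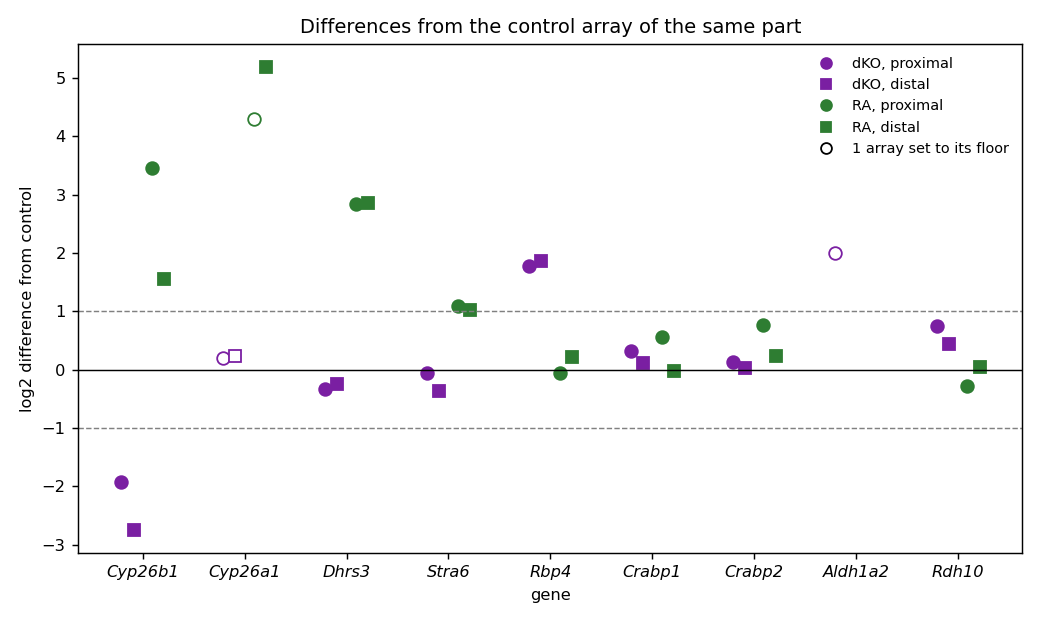
The log2 difference of each gene from the control array of the same part, in dKO (purple) and RA (green), proximal (circles) and distal (squares); dashed lines mark 2-fold, and open symbols have 1 array set to its floor. Cyp26b1 lies below 0 in dKO (-1.93 and -2.74) and above 0 in RA (3.46 and 1.56), and Rbp4 lies above 2-fold only in dKO (1.77 and 1.86).

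The direct comparison of dKO with RA uses no control array. Cyp26b1 was 41.9-fold lower in dKO than in RA proximally and 19.7-fold lower distally, the lowest of 11782 differences and the 4th lowest of 11637. This gap is the sum of the opposite differences and is likewise a description. Cyp26a1 had 73.3 in the proximal dKO part, at that array's floor, against 1256 in RA, and was at least 31.0-fold lower in the distal dKO part. Dhrs3 was 8.99-fold and 8.67-fold lower, and Stra6 2.23-fold and 2.63-fold lower. Rbp4 was 3.58-fold and 3.12-fold higher. At 2-fold in both parts 4 of 8 genes were lower in dKO, where 0.624% of all genes were, and 1 was higher, where 4.28% were. Cyp26a1 entered the distal comparison only through the RA array, so nothing is read from its place in that count. The limma estimates were -4.53 for Cyp26a1 (SE 0.30, adjusted p = 0.0022), -3.14 for Dhrs3 (SE 0.16, adjusted p = 0.0014) and -1.27 for Stra6 (SE 0.21, adjusted p = 0.0206). Some Cyp26a1 values are floors, which can make its p too small. With Cyp26b1 the threshold counts 4 of 9 genes lower, against 0.939% of all genes, and nothing is read from Cyp26b1 there, since it was chosen on these differences. Rbp4 was the 1 gene higher, against 5.43%. The sex-linked signals and the Ring1A label also differ between these arrays.

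The parts were compared within each condition. In control, Cyp26b1 was 2.58-fold lower proximally than distally (log2 -1.37), the 63rd lowest of 11391 differences and the 1 gene of 8 past 2-fold, where 1.40% of all genes were. No gene of the set was 2-fold higher proximally in control, where 1.35% of all genes were. In dKO the difference for Cyp26b1 was -0.56, on a proximal signal of 79.3 that is close to that array's floor of 73.0. In RA it was 0.53, with the proximal part higher. The change of direction between control and RA was not tested, since each rests on 1 pair of arrays. Rdh10 was higher proximally in control and dKO by log2 0.51 and 0.81. In RA its probe sets had opposite signs, 0.19 and -0.34. Aldh1a2 was at least 3.36-fold higher in the proximal than in the distal dKO part, but it entered that comparison only through the proximal array and is not counted. Of the 8 others in dKO, 0 were 2-fold higher or lower proximally, where 0.515% and 0.722% of all genes were. In RA 0 of 8 were higher or lower, where 4.4% and 6.16% of all genes were. Cyp26a1 had 1256 proximally and 2358 distally in RA (log2 -0.91). Dhrs3 lay between 0.25 and 0.33 in all 3 conditions.

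In limma 0 of 9 genes passed the threshold for position, as did 0% of all genes in each direction. Over all genes 1156 had an unadjusted p under the threshold, and in the set Crabp2 (log2 0.37) and Rdh10 (log2 0.50) did. Their adjusted p in limma was 0.503 and 0.517. For Cyp26b1 the estimate was -0.46 (SE 0.35, adjusted p = 0.628). It was -0.96 without the RA pair, without the proximal RA array and without the distal RA array, and past the threshold each time, with a lowest adjusted p of 0.0134. Rdh10 was past it without the RA pair (0.66, adjusted p = 0.0457) and without the distal RA array (adjusted p = 0.0453).

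**Figure D3:**
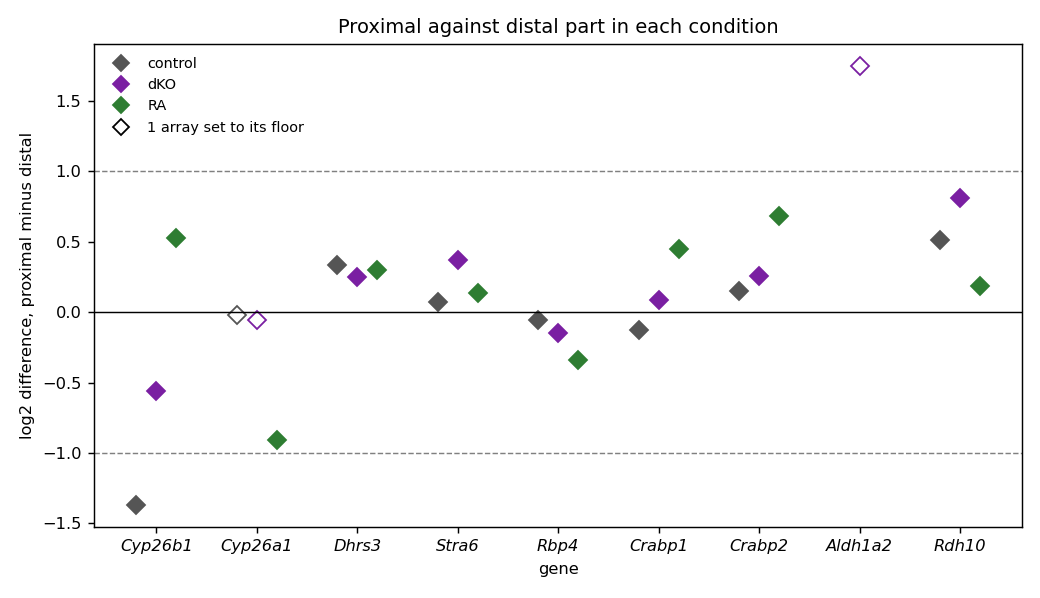
The log2 difference of the proximal minus the distal array for each gene in control (grey), dKO (purple) and RA (green); dashed lines mark 2-fold, and open symbols have 1 array set to its floor. Cyp26b1 goes from -1.37 in control through -0.56 in dKO to 0.53 in RA, while Dhrs3 stays between 0.25 and 0.33.

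Other retinoid genes were read from 4 further lists. Of 26 retinol and retinal dehydrogenase genes, 23 were on the array and 10 could be compared in both parts. Among them 1 was 2-fold higher in dKO in both parts and 0 lower, where 2.93% and 0.185% of all genes were. In RA 0 were higher or lower, where 0.893% and 0.992% of all genes were, and the same shares stand behind the counts of the lists that follow. That gene, Dhrs7, a member of the short-chain dehydrogenase family, had signals of 85.3 and 99.8 on the control arrays, 198 and 218 on the dKO arrays and 84.3 and 72.8 after RA. It rose in dKO in limma (1.17, SE 0.21, adjusted p = 0.0467). Of 16 carrier, uptake and storage genes, 14 were on the array, 5 could be compared in both parts in dKO and 4 in RA, and 0 were past 2-fold in both parts or called by limma. Of 7 other genes of retinoid breakdown, 5 were on the array and 1 could be compared in both parts, Cyp1b1, which was not past 2-fold. The median log2 difference of the dehydrogenase list was -0.02 and 0.18 in dKO and -0.02 and -0.05 in RA.

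The list of RA receptors and RA response genes had 15 of 16 members on the array. Of 12 that could be compared in both parts in dKO, 1 was 2-fold higher in both and 0 lower (2.93% and 0.185% of all genes). Proximally 2 of 12 were higher and 0 lower in dKO (4.07% and 0.363% of all genes). Distally 5 of 13 were higher and 1 lower in dKO (5.32% and 0.524%). Of 11 compared in both parts in RA, 2 were higher and 0 lower (0.893% and 0.992%). By part, 4 of 13 were higher in RA proximally (3.69%) and 4 of 12 distally (2.16%), with 0 lower (6.8% and 2.13%). Counts by part include genes below the floor in control. Rarb, an RA receptor gene that RA itself induces, had signals of 617 and 117.0 on the control arrays, 647 and 380 on the dKO arrays and 2814 and 2000 after RA. It rose in RA (limma 3.14, SE 0.44, adjusted p = 0.0488). Nrip1, a nuclear receptor corepressor, had signals of 953 and 836 on the control arrays, 1029 and 952 on the dKO arrays and 2151 and 2489 after RA, and rose in RA (limma 1.37, SE 0.18, adjusted p = 0.0375). Cdx1, a homeobox gene of the posterior trunk, was the 1 gene higher in both parts in dKO, at 155 and 175 against 60.8 and 76.5 in control. Its proximal control signal lay below that array's floor of 64.0. Cdx1 thus entered the proximal comparison only through the dKO array, and nothing is read from that count. In RA Cdx1 was at 110 and 412, and limma did not call it in dKO. The list's median log2 difference was 0.09 and 0.20 in dKO and 0.73 and 0.19 in RA.

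The genes most like Cyp26b1 and Rbp4 over the 6 arrays were found by the correlation of log2 signals, among 578 and 579 genes above the floor on at least 4 arrays with a range of at least 2. The points share arrays and conditions, so r is a description. Slc15a2, a peptide transporter gene, came first for Cyp26b1 (r = 0.957), with signals of 171 and 328 on the control arrays, 57.7 and 139 on the dKO arrays and 471 and 722 after RA. Saa1, which encodes serum amyloid A1, came second (r = 0.946), with 549 and 955 on the control arrays, 124 and 160 on the dKO arrays and 1114 and 1374 after RA. Both genes were, like Cyp26b1, lowest in dKO and highest in RA in each part. Gm45351, 3110045C21Rik and Zdhhc14 followed at r = 0.940, 0.940 and 0.939. For Rbp4 the nearest genes were Galnt12, Kdelr3, Pou3f3, Kcng1 and Tcfl5, with r from 0.990 to 0.996. Galnt12, a glycosyltransferase gene, had 130 and 139 on the control arrays, 831 and 1044 on the dKO arrays and 140 and 212 after RA.

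The 5 protein-coding genes on each side of 4 members were read to see how far along the chromosome the differences reach, a choice made after the values of the members were seen. Beside Cyp26b1, on chromosome 6, all 10 neighbours could be compared in both parts. In RA they lay between -0.75 and 0.82 (log2) proximally and between -0.63 and 0.63 distally, and 0 of 10 were past 2-fold. Of all genes 3.69% were higher and 6.8% lower in RA proximally, and 2.16% and 2.13% distally. In dKO 0 of 10 were past 2-fold proximally, where 4.07% of all genes were higher and 0.363% lower. Counts of 10 genes so close to these shares cannot show how far the differences reach. Distally 1 of 10 was past 2-fold in dKO, where 5.32% of all genes were higher and 0.524% lower. That gene was Dysf, the adjacent one, a membrane repair gene, with 603 in the distal control part and 285 in the distal dKO part (log2 -1.08), against 365 and 341 proximally.

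Cyp26a1 and Rbp4 both lie on chromosome 19, where Rbp4 is the 4th protein-coding gene from Cyp26a1. The genes between them are Myof and Ffar4, both below the floor on all 6 arrays, and Cep55, which differed from control by log2 -0.29 to 0.13. Rbp4 was thus higher in dKO and Cyp26a1 in RA, with Cep55 close to control in both. Beyond Rbp4, Fra10ac1 differed from control by log2 0.22 and 0.19 in dKO and 0.07 and 0.08 in RA. Slc35g1, further on, differed by 0.57 and 1.03 in dKO and 0.85 and 0.60 in RA. On the other side of Cyp26a1, Hhex, a homeobox gene, had 106 and 133 on the control arrays, 275 and 203 on the dKO arrays and 214 and 136 after RA. Beside Dhrs3, on chromosome 4, the adjacent gene Vps13d was at 237 and 229 in control and 563 and 401 in RA (log2 1.25 and 0.81). The gene on its other side, Tnfrsf1b, was at 52.6 and 61.8 on the control arrays, 158 and 137 on the dKO arrays and 47.2 and 73.0 after RA.

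**Figure D4:**
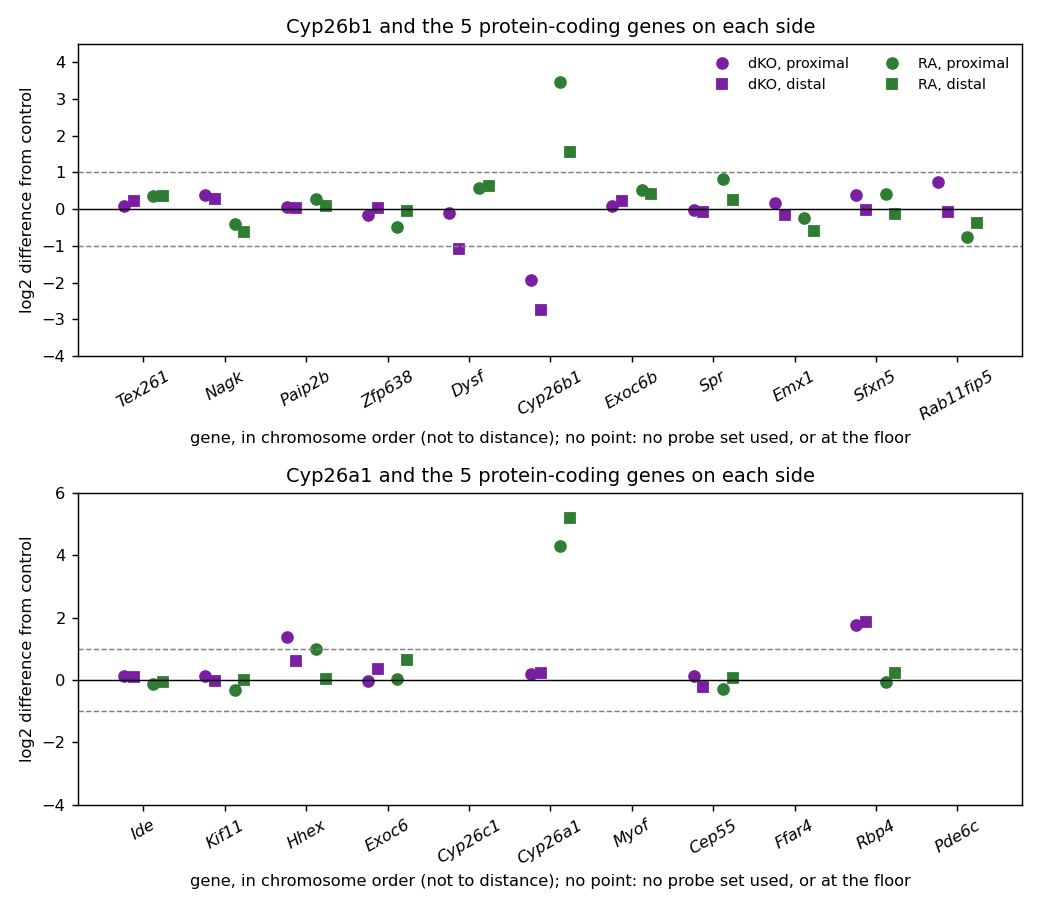
The log2 difference from control for Cyp26b1 (upper panel) and Cyp26a1 (lower panel) and the 5 protein-coding genes on each side, in chromosome order and not to distance; purple is dKO, green is RA, circles are proximal, squares distal, and dashed lines mark 2-fold. Signals below the floor were set to it, as for Cyp26a1 in the proximal control part. Around Cyp26b1 all neighbours but Dysf in the distal dKO part (-1.08) lie within 2-fold, and in the lower panel Cyp26a1 is high in RA and Rbp4 in dKO.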

How the data were processed

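The authors deposited MAS5 signal intensity on a linear scale for 45101 probe sets, and per the submitters' processing notes the tool was MAS5, of a version that the sources used here do not state. The trimmed mean of each deposited array, without 2% of probe sets at either end, is 500. The platform annotation lists 34958 probe sets with 1 symbol, 932 with several and 9211 with none, and 34754 gene IDs matched the RefSeq table. Where a gene had several probe sets, the one of highest mean log2 signal stood for it. Signals below the array median were set to it, then log2 was taken. A fold against a floored array is given as "at least", computed from the higher of that array's floor and the gene's own signal. limma 3.58.1 (R 4.3.3, trended prior, prior degrees of freedom 4.64) was fitted over all 6 arrays. A run on simulated data used independent noise without floors or differences between the parts. It therefore does not check the p-values of floored genes or of genes whose parts differ. The number of arrays limits the precision.

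The 9 genes and all lists were chosen with earlier results of these data known. Members are all named, other retinoid genes only when 2-fold in both parts or called by limma, and cell type markers, chromosome neighbours and like genes as values. Alternatives were quantile normalization, array median scaling, a floor at the 25th percentile, no floor with log2(signal + 16), the mean of probe sets, a fit over every probe set, no trended prior, and leaving out arrays or pairs. Each Rdh10 probe set by itself was added after seeing the data.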

Additional observations from a re-analysis of the deposited data

Results flagged for a closer look

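Cyp26b1 differed between the proximal and distal parts in opposite directions in the conditions. The log2 difference of proximal minus distal was -1.37 in control, -0.56 in dKO and 0.53 in RA. Each value rests on 1 array per part, and the difference between conditions was not tested. The proximal RA array, on which the last value rests, is also the one that correlated least with the others, and its part in the value was not tested. The dKO value rests on a proximal signal of 79.3, close to that array's floor of 73.0, and the part of the floor in it was not tested.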

How the results depend on the processing

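Among the summary counts recomputed under alternatives, 102 stayed within 1.5 times of the reported count and 22 moved. Among values of single genes 598 stayed, 47 moved, 19 came past the threshold and 8 lost it, with 0 called values turned. With the floor at the 25th percentile, 2 genes were 2-fold higher in both parts in dKO against control, 2 in dKO against RA, and 2 were lower proximally in control. The dKO effect called 0 genes lower under quantile normalization, array median scaling, that floor, no floor, the mean of probe sets, every probe set and no trended prior, and 0 higher with that floor. It called 3 higher without the RA pair, without the proximal or without the distal RA array, where 1225 to 1246 of all 12147 genes were called higher, against 269. The RA effect called 4 higher without the dKO pair and without the proximal RA array (1.87% and 3.85% of all genes), and 6 without the distal one (20.0%), against 0.305%. Position called 1 higher without the RA pair and without the distal RA array, and 1 lower without the RA pair, the proximal or the distal RA array, where 199 to 216 genes were called higher and 226 to 230 lower, against 0. Fits without arrays keep 1 residual degree of freedom, and the cause of the other changes was not tested. Array median scaling moved the median of all genes by -0.35 in the distal and -0.17 in the proximal dKO part and by -0.24 in distal RA. No paired analysis was possible because the labels give no replicate numbers and each group has 1 array, and the only block is the part, which the model holds.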

Other observations

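Markers of other cells of the bud differed between the arrays as well, and are given as values. The 6 muscle precursor markers summed to 2628 and 521 on the control arrays, 3595 and 1451 on the dKO arrays and 2595 and 434 after RA, proximal part first. The 10 endothelial markers summed to 3710 and 2767 on the control arrays, 5216 and 3781 on the dKO arrays and 5134 and 3247 after RA. The 12 surface ectoderm markers summed to 10230 and 17581 on the control arrays, 11365 and 17000 on the dKO arrays and 9785 and 12848 after RA. The 7 erythroid markers summed to 34207 and 33100 on the control arrays, 39714 and 36646 on the dKO arrays and 46088 and 38169 after RA, and the 6 macrophage markers to 690 and 955, 768 and 825, and 974 and 1342 in the same order. The 4 markers of neural crest, Schwann and neuronal cells summed to 340 and 432 on the control arrays, 880 and 980 on the dKO arrays and 196 and 291 after RA. No value of the retinoid genes was adjusted for these markers.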
